A study of Homo sapiens with 6 samples.

Results

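The bridge-like lipid transfer genes are a small family defined by name. The 10 members, VPS13A, VPS13B, VPS13C, VPS13D, ATG2A, ATG2B, KIAA1109 (current symbol BLTP1), KIAA0100 (BLTP2), UHRF1BP1 (BLTP3A) and UHRF1BP1L (BLTP3B), were found by symbol among the 18358 genes of the deposited gene table. Their 49 transcripts were joined by Entrez identifier from the 87783 rows of the transcript table. The names, and no threshold on a measured value, define the set, but it was chosen with earlier results of these data known.

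Proteins of this family are long rods with a hydrophobic groove along their length, built of repeating units. They span the gap at contacts between the endoplasmic reticulum (ER) and another organelle, and lipids are thought to slide along the groove in bulk. VPS13 proteins differ in the organelle they reach, ATG2 proteins feed the growing autophagosome membrane, and the BLTP1 to BLTP3 proteins act at contacts with the plasma membrane or endosomes.

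RNA of ME180, an established line from a human cervical epidermoid carcinoma, was sequenced in 6 libraries. In 3 libraries the cells carried a vector, and in 3 they carried sgVPS13C, a single-guide construct against VPS13C. Both groups had been kept in 2 µM cisplatin, a drug that crosslinks DNA, for 48 h, so no library shows either genotype without the drug. The labels do not say whether sgVPS13C was a clone or a pool, nor whether the libraries came from separate cultures, so a p-value here speaks only to differences among these libraries, and that spread may be technical.

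Total estimated counts were 14774065 to 15799149 per library, and 13717 genes passed the filter on low counts. All 9 squamous epithelial markers reached 1 FPKM (fragments per kilobase of transcript per 1e6 reads) in a library, with sums of 7623 to 9551 FPKM in vector and 11413 to 13290 FPKM in sgVPS13C. Of 9 measured markers of other cells, COL1A1 and VWF reached 1 FPKM and RPE65 was listed at 0, with sums of 7.81 to 9.17 FPKM in vector and 10.7 to 11.9 FPKM in sgVPS13C. These sums differ between the groups, and their part in the results on the family was not tested. The libraries also differed along transcript length. Tested genes were split into 10 equal bins by length. In the bin of the longest genes, the median log2 deviation from the mean of all libraries was 0.20, -0.18 and -0.10 in vector 1, 2 and 3 and 0.20, -0.18 and 0.07 in sgVPS13C 1, 2 and 3. Because 8 of the 10 members lie in that bin, the log2 fold change of each member gene is also given with the trend removed.

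The 2 VPS13C transcripts that carried nearly all of its reads differ at the 3' end of the coding sequence, and the stretch where they part is printed because it separates them in the transcript results. In GENCODE 29 on GRCh38 both run along the minus strand of chromosome 15 and share the exon at chr15:61868659-61868773, number 79 in both. NM_017684 has 83 exons and 13300 bases, and goes on to chr15:61863440-61863528 and 3 further exons. NM_018080 has 80 exons and 11012 bases, and ends in a single exon of its own at chr15:61867744-61867947. Lower case marks the last 15 shared bases and capitals the first 15 bases of each transcript's own.
NM_017684: tctgacttacttgagAATCATATCAAAAAG
NM_018080: tctgacttacttgagCAAGAACTGGAAATA

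Promoter sequence is printed for 3 members whose libraries did not overlap between the groups: the targeted gene, VPS13D and ATG2A. Each run is the 250 bases before the start of the gene, from RefSeq on GRCh38.p14, 5' to 3' on the strand of the gene. Capitals mark GGGCGG, the GC box bound by SP1, or CCAAT, the core bound by NF-Y, on either strand.
VPS13C, chr15:62060448-62060697, minus strand: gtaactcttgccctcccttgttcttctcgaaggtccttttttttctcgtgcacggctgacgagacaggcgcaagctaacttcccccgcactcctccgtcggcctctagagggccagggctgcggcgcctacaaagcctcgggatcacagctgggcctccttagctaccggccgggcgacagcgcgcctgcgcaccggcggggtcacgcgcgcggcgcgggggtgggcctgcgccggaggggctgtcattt
VPS13D, chr1:12229780-12230029, plus strand: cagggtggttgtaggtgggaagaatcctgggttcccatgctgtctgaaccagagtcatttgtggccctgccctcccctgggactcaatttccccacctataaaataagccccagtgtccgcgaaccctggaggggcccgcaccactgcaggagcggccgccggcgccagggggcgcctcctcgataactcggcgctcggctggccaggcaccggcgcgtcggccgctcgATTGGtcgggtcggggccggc
ATG2A, chr11:64917210-64917459, minus strand: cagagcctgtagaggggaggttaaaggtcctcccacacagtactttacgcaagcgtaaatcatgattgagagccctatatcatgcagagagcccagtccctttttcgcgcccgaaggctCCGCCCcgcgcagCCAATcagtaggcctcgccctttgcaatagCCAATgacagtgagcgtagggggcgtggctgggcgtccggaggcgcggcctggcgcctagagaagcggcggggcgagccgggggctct
The VPS13C window held neither motif, the VPS13D window 1 CCAAT, and the ATG2A window 1 GGGCGG and 2 CCAAT. Windows were at hand for 9 members. GGGCGG was in a window of 7 of these, against 42.5% of 34943 RefSeq promoters of this length, and CCAAT in 3, against 32.0%. The E-box CACGTG, bound by TFEB and MYC, and the AP-1 motif TGAGTCA were in windows of 0 of the 9 members, against 6.32% and 4.22% of promoters. A match is a run of letters and not a shown binding site.

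VPS13C, the targeted gene, lies at chr15:61852389-62060447 on GRCh38. Its protein bridges the ER to late endosomes, lysosomes and lipid droplets, and recessive loss of it causes early-onset parkinsonism. VPS13C stood at 48.1, 30.1 and 35.0 CPM (counts scaled to a common library size, with TMM factors) in vector and at 28.6, 18.7 and 23.7 CPM in sgVPS13C. The highest sgVPS13C library was below the lowest vector library, so the groups did not overlap, though only just. In bulk RNA, fewer cells with a transcript and less of it in each cell cannot be told apart. VPS13C RNA thus remained in all 3 sgVPS13C libraries, at 263 to 436 estimated counts, and protein was not measured here. These counts do not show whether the remaining RNA was edited or intact. Its mean was 37.8 ± 9.30 CPM (SD, n = 3) in vector and 23.7 ± 5.00 CPM in sgVPS13C, a log2 fold change of -0.67 ± 0.22 (SE; 95% interval -1.19 to -0.15). This missed the threshold of 0.05, with an edgeR quasi-likelihood adjusted p of 0.0513 over all tested genes.

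With the trend on length removed, VPS13C fell by 0.74 on the log2 scale (SE 0.09; edgeR quasi-likelihood adjusted p = 4.74e-04). The adjusted levels were 40.6, 35.4 and 38.5 CPM in vector and 24.4, 21.6 and 22.7 CPM in sgVPS13C. The spread within groups narrowed, from a coefficient of variation of 24.6% to 6.96% in vector and from 21.1% to 6.06% in sgVPS13C, while the difference between the groups changed little. Leaving out 1 library at a time gave log2 values of -0.84 to -0.46 with edgeR adjusted p of 0.0378 to 0.144, past the threshold without vector 2 (0.0378) and without sgVPS13C 1 (0.0482).

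**Figure D1:**
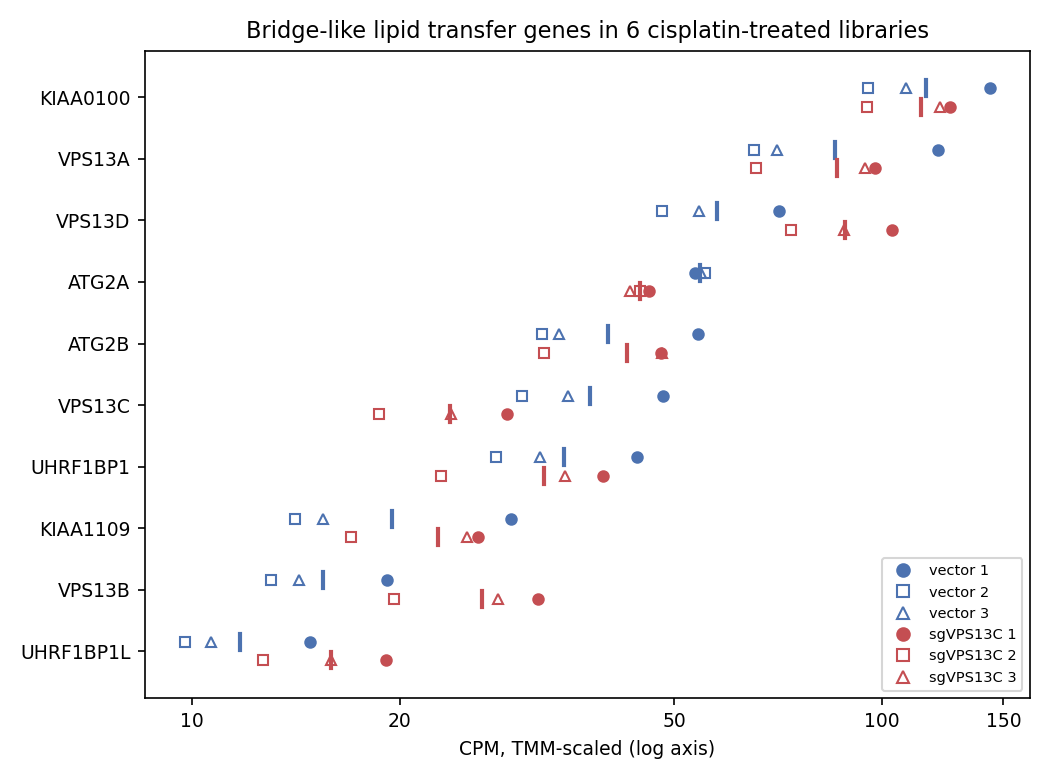
CPM of each of the 10 members in the 3 vector and 3 sgVPS13C libraries, on a log axis; points are libraries and upright ticks are group means. VPS13C and ATG2A are lower, and VPS13B and VPS13D higher, in every sgVPS13C library than in any vector library, and the other 6 members overlap.

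Across the family, all 10 members passed the low-count filter and 3 passed the test, where 35.1% of all tested genes did. VPS13B and VPS13D rose, as did 17.8% of tested genes, and ATG2A fell, as did 17.4%. The median log2 fold change of the members was 0.05, beside 0.00 for all tested genes. The groups did not overlap in CPM for 4 of the 10 members, namely VPS13B, VPS13C, VPS13D and ATG2A, against 48.5% of tested genes. The count of members called was therefore no higher than the background of a comparison in which a large share of all genes moved. With the length trend removed, VPS13B, VPS13C, VPS13D and ATG2A were called, 2 in each direction, against 46.4% of tested genes. The adjusted CPM of the groups did not overlap for 3 members, VPS13B, VPS13C and VPS13D, against 56.2% of tested genes.

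VPS13B and VPS13D, paralogs of VPS13C, were higher in sgVPS13C, the opposite direction to VPS13C. VPS13B (chr8:99013274-99877580) works at the Golgi and is mutated in Cohen syndrome. It stood at 19.19, 13.03 and 14.28 CPM in vector and at 31.73, 19.64 and 27.74 CPM in sgVPS13C. The lowest sgVPS13C library was just above the highest vector library. VPS13B rose by 0.76 ± 0.22 on the log2 scale (SE; 95% interval 0.25 to 1.27), 1.70-fold, with an edgeR quasi-likelihood adjusted p of 0.0323. VPS13D (chr1:12230030-12512047) acts at mitochondria and peroxisomes, where loss of it alters mitochondrial shape and clearance. It stood at 70.9, 48.0 and 54.3 CPM in vector and at 103.3, 73.9 and 88.3 CPM in sgVPS13C, again without overlap. VPS13D rose by 0.61 ± 0.18 on the log2 scale (SE; 95% interval 0.18 to 1.05), 1.53-fold, with an edgeR quasi-likelihood adjusted p of 0.0375.

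In both groups the VPS13D and VPS13B libraries kept the same order, replicate 1 highest and replicate 2 lowest. With the length trend removed that spread almost closed for VPS13D, at 59.0, 56.8 and 59.6 CPM in vector against 86.8, 86.0 and 84.2 CPM in sgVPS13C. Its coefficient of variation went from 20.5% to 2.58% in vector and from 16.6% to 1.60% in sgVPS13C. VPS13B then stood at 16.26, 15.37 and 15.76 CPM against 27.0, 22.8 and 26.5 CPM. The adjusted rises were 0.55 for VPS13D (edgeR adjusted p = 5.36e-04) and 0.69 for VPS13B (edgeR adjusted p = 9.12e-04), on the log2 scale. Without the length adjustment, the calls of both genes were lost when vector 2, vector 3, sgVPS13C 1 or sgVPS13C 3 was left out. In that order the edgeR adjusted p was 0.0948, 0.113, 0.112 and 0.118 for VPS13B and 0.107, 0.128, 0.130 and 0.122 for VPS13D. Scaling by library size alone also lost both, with edgeR adjusted p of 0.0663 for VPS13B and 0.0848 for VPS13D, as did limma on log2(FPKM + 1), with 0.120 and 0.0947. The log2 values stayed between 0.39 and 0.94 for VPS13B and between 0.48 and 0.78 for VPS13D over all 14 alternatives. The 0.39 came from limma, on a scale where the added 1 shrinks differences at low FPKM. The lowest edgeR value of VPS13B with 1 library left out was 0.60.

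The remaining VPS13 paralog did not pass the test. VPS13A (chr9:77177534-77421537), which bridges the ER to mitochondria and is mutated in chorea-acanthocytosis, stood at 120.5, 65.3 and 70.4 CPM in vector and at 97.8, 65.8 and 94.7 CPM in sgVPS13C. Vector 1 was the highest library of all, and the ranges overlapped. This gave a log2 fold change of 0.01 ± 0.27 (SE; 95% interval -0.61 to 0.64; edgeR quasi-likelihood adjusted p = 0.981). That interval reaches past the value of VPS13D at its upper end. With the length trend removed the value was -0.04.

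ATG2A and ATG2B carry lipid from the ER to the growing autophagosome and also act at lipid droplets. ATG2A (chr11:64894546-64917209) stood at 53.6, 55.4 and 54.6 CPM in vector and at 45.9, 44.7 and 43.2 CPM in sgVPS13C. This was the tightest pair of groups in the family, with coefficients of variation of 1.64% and 3.07%, and they did not overlap. ATG2A fell by 0.29 on the log2 scale (SE 0.09; 95% interval -0.50 to -0.08), 0.818-fold, with an edgeR quasi-likelihood adjusted p of 0.0419. The call was lost with any 1 library left out, with edgeR adjusted p of 0.0521 (vector 1), 0.126 (vector 2), 0.139 (vector 3), 0.0804 (sgVPS13C 1), 0.0735 (sgVPS13C 2) and 0.144 (sgVPS13C 3). Removing the length trend spread its libraries instead of drawing them together, to 48.3, 61.6 and 58.2 CPM in vector against 41.2, 49.3 and 41.3 CPM in sgVPS13C, which overlap. The adjusted log2 fold change was -0.35 ± 0.12 (SE; edgeR adjusted p = 0.0435).

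ATG2B (chr14:96279195-96363341), the longer paralog, stood at 54.1, 32.2 and 34.0 CPM in vector and at 47.8, 32.4 and 48.0 CPM in sgVPS13C. The groups overlapped throughout. Its log2 fold change was 0.09 ± 0.24 (SE; 95% interval -0.48 to 0.66; edgeR quasi-likelihood adjusted p = 0.804), and 0.03 with the length trend removed.

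None of the 4 BLTP1 to BLTP3 genes passed the test in the main edgeR fit or by DESeq2, and none had an unadjusted p under 0.05 in that edgeR fit. KIAA0100 (chr17:28614440-28645159), whose protein works at contacts of the ER with the plasma membrane, had the most counts of the family, at 143.2, 95.6 and 108.4 CPM in vector and 125.5, 95.2 and 121.5 CPM in sgVPS13C. Its libraries overlapped between the groups, at a log2 fold change of -0.02 ± 0.18 (SE; 95% interval -0.44 to 0.40; edgeR quasi-likelihood adjusted p = 0.944), or -0.07 with the length trend removed. KIAA1109 (chr4:122152331-122362752), mutated in Alkuraya-Kučinskas syndrome, stood at 29, 14.13 and 15.48 CPM and at 26.0, 17.0 and 25.1 CPM in the same order, with a log2 fold change of 0.21 (95% interval -0.49 to 0.92; edgeR adjusted p = 0.619), or 0.17 with the length trend removed. Leaving out 1 library moved KIAA1109 between 0.03 (without vector 2, edgeR adjusted p = 0.961) and 0.61 (without vector 1, edgeR adjusted p = 0.0507).

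The 2 endosomal members, UHRF1BP1 and UHRF1BP1L, are close paralogs. UHRF1BP1 (chr6:34792083-34877514) stood at 44.2, 27.6 and 31.9 CPM in vector and at 39.4, 23.0 and 34.7 CPM in sgVPS13C, with a log2 fold change of -0.09 (95% interval -0.67 to 0.48; edgeR adjusted p = 0.797), or -0.17 with the length trend removed. It overlaps TAF11 in RefSeq, and the strandedness of the counts is not given in the sources used here, so reads of the overlap cannot be told apart. UHRF1BP1L (chr12:100037072-100142874) stood at 14.83, 9.787 and 10.66 CPM in vector and at 19.1, 12.7 and 15.9 CPM in sgVPS13C. Only vector 1 reached into the sgVPS13C range. Its log2 fold change was 0.43 ± 0.21 (SE; 95% interval -0.06 to 0.93; edgeR quasi-likelihood adjusted p = 0.158), and 0.42 with the length trend removed (edgeR adjusted p = 0.0614). Leaving out 1 library moved it between 0.27 (without sgVPS13C 1, edgeR adjusted p = 0.435) and 0.63 (without vector 1, edgeR adjusted p = 0.0393), and only the latter of these 6 fits passed the threshold. UHRF1BP1L was also called with replicate numbers as a block (edgeR adjusted p = 0.00438), and with the length trend also removed (edgeR adjusted p = 0.00276). Removal of the trend left coefficients of variation of 16.9% in vector and 14.8% in sgVPS13C for UHRF1BP1L. It rests on an effective length of 3720 bases, which depends on the transcripts that reads were assigned to.

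**Figure D2:**
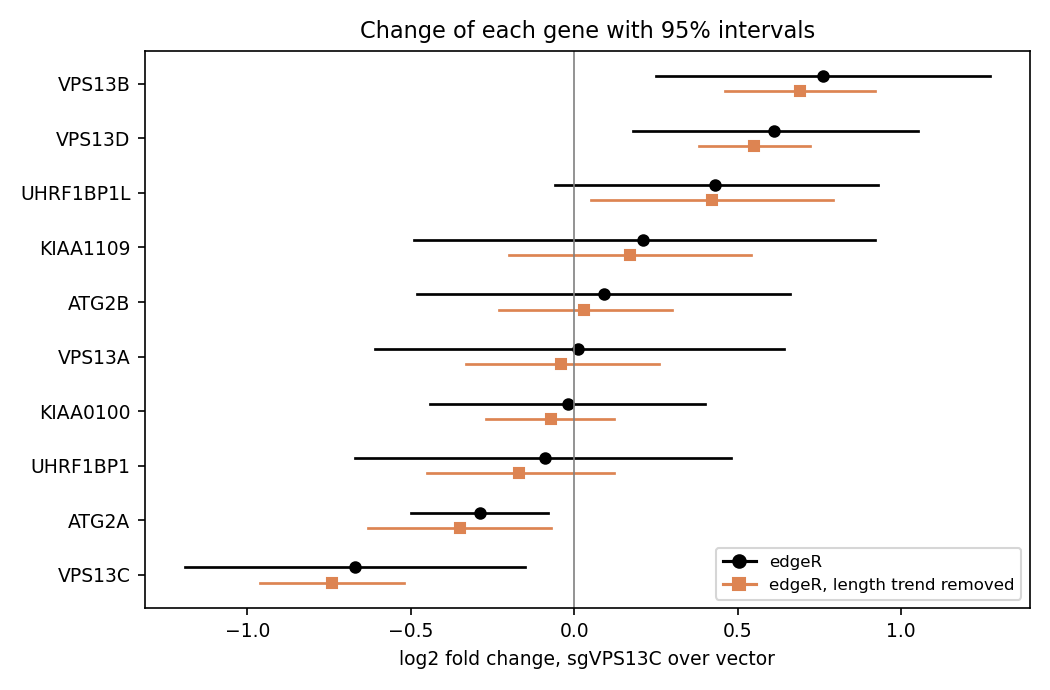
Log2 fold change of each member, sgVPS13C against vector, with its 95% interval, from the edgeR fit as deposited and with the length trend removed. The intervals of VPS13B and VPS13D lie above 0 and those of VPS13C and ATG2A below 0 in both fits, and removing the trend narrows most of them.

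Most members shared 1 order of replicates within each group. In vector, 9 of the 10 members were highest in replicate 1 and 9 were lowest in replicate 2, ATG2A being the exception to both, against 42.4% and 35.9% of tested genes. In sgVPS13C, 9 members were highest in replicate 1 and 9 lowest in replicate 2, against 36.6% and 44.4% of tested genes, with ATG2B and ATG2A as the respective exceptions. These shares cover genes of all lengths, while most members lie in the bin of the longest genes. The order is therefore not read as a trait of the family. Effective lengths of the members ran from 3720 bases for UHRF1BP1L to 16037 bases for VPS13D. At the length of VPS13D the fitted trend was 0.27, -0.24 and -0.13 log2 units in vector 1, 2 and 3 and 0.25, -0.22 and 0.07 in sgVPS13C 1, 2 and 3. The trend differed between the group means by only 0.01 to 0.07 log2 units over the 10 members, much less than between libraries of a group.

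**Figure D3:**
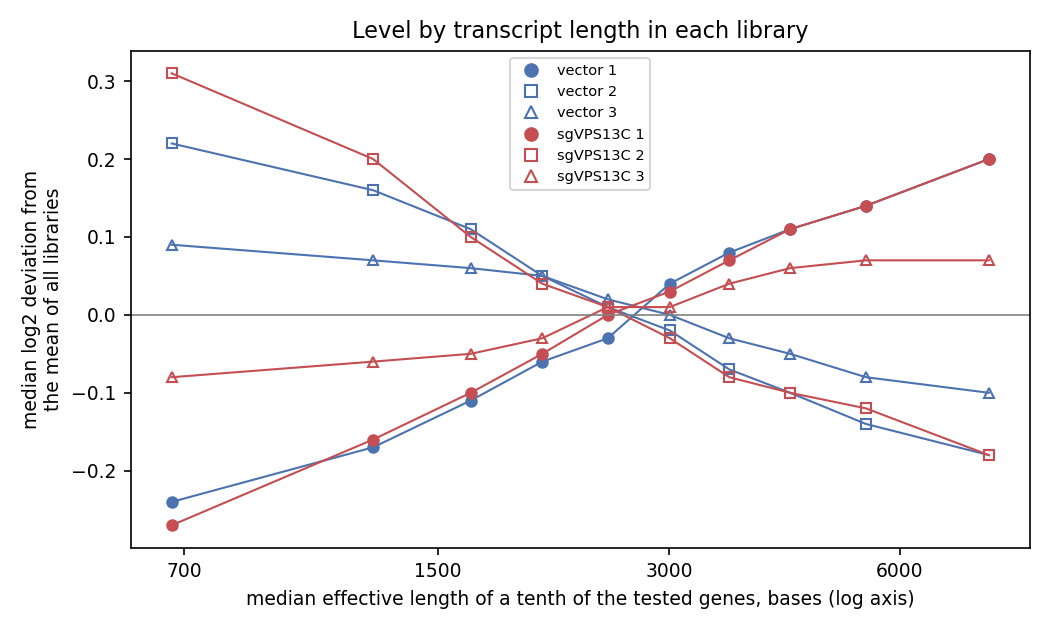
Median log2 deviation of each library from the mean of all libraries, over 10 bins of tested genes by length (log axis). Vector 1 and sgVPS13C 1 climb with length and vector 2 and sgVPS13C 2 descend, and 8 members lie in the bin of the longest genes.

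Ratios of counts within a library cancel any factor common to 2 genes of similar length, and were added after the values above had been seen, so they carry no test. VPS13B had 0.399, 0.432 and 0.408 counts per VPS13C count in vector and 1.11, 1.05 and 1.17 in sgVPS13C. The scarcer of the pair in vector was thus the more abundant in sgVPS13C, with a mean ratio 2.69 times as high. VPS13D had 1.47, 1.59 and 1.55 counts per VPS13C count in vector and 3.61, 3.96 and 3.72 in sgVPS13C, 2.45 times as high. UHRF1BP1L had 0.308, 0.325 and 0.304 in vector and 0.667, 0.681 and 0.670 in sgVPS13C, 2.15 times as high and with the narrowest spread of the 9 ratios in sgVPS13C. UHRF1BP1L libraries did not overlap on this scale, although they did in CPM, with or without the length trend. By effective length, 3720 bases against 13074 for VPS13C, this pair is not of similar length, so the fitted length trend need not cancel. The ratio nonetheless varied little within each group. An effective length comes from counts over FPKM, and so depends on the transcripts that reads were assigned to.

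Of the 9 other members, 8 had a higher ratio to VPS13C in every sgVPS13C library than in any vector library, as did 52.9% of all other tested genes (56.4% did not overlap in either direction). ATG2A was the exception, with 1.11, 1.84 and 1.56 in vector and 1.60, 2.40 and 1.82 in sgVPS13C. For the remaining 5 members the mean ratio was 1.48 (UHRF1BP1) to 1.90 (KIAA1109) times as high. VPS13C itself was lower in sgVPS13C, so a gene with unchanged CPM also has a higher ratio. VPS13A, at a log2 fold change of 0.01 in CPM, was 1.64 times as high. Most members share the bin of the longest genes with VPS13C, while the 52.9% covers genes of all lengths. The 8 of 9 is therefore not read as a result about the family. VPS13B and VPS13D kept step with each other, at 3.69, 3.69 and 3.80 VPS13D counts per VPS13B count in vector and 3.26, 3.76 and 3.18 in sgVPS13C, which overlap. Against VPS13A, both were higher in every sgVPS13C library, by 1.63 times for VPS13B and 1.49 times for VPS13D. UHRF1BP1L to UHRF1BP1 was 1.46 times as high without overlap, while ATG2A to ATG2B was 0.750 times as high with overlap. The genes within each of the last 2 pairs differ in effective length, so the length trend need not cancel there.

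**Figure D4:**
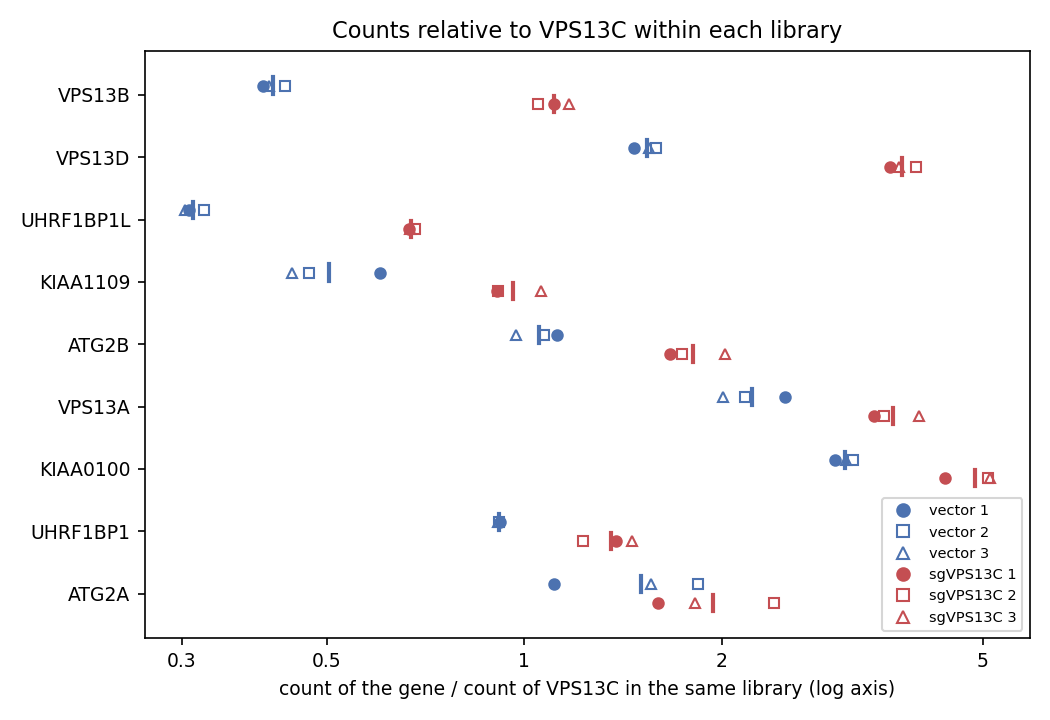
Counts of each other member per VPS13C count in each library, on a log axis, with upright ticks at the group means. The sgVPS13C libraries lie above the vector libraries for 8 members, by the most for VPS13B, VPS13D and UHRF1BP1L, and overlap them for ATG2A.

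Levels between genes are compared on the deposited FPKM scale, which divides by length. The summed FPKM of the 10 members was 66.4, 42.3 and 46.8 in vector and 59.7, 40.3 and 54.3 in sgVPS13C, and the groups overlapped (exact two-sided permutation p = 1). VPS13C made up 5.86%, 5.29% and 5.72% of that sum in vector and 3.78%, 3.33% and 3.35% in sgVPS13C, a difference of -2.14 percentage points (exact two-sided permutation p = 0.1, the smallest that 3 against 3 libraries allow). VPS13D made up 7.07%, 6.90% and 7.22% in vector and 11.1%, 10.7% and 10.2% in sgVPS13C. VPS13B went from a mean of 2.44% to 3.81% and UHRF1BP1L from 6.08% to 8.15%, both without overlap and with the same smallest exact permutation p of 0.1. The other 6 shares overlapped between the groups, among them KIAA0100 at 31.4% to 32.8% in vector and 30.8% to 31.6% in sgVPS13C.

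KIAA0100 had the highest level per length in both groups, at 16.65 ± 4.178 FPKM (SD, n = 3) in vector and 16.08 ± 3.003 FPKM in sgVPS13C, and its range lay above that of every other member. ATG2A came next at 9.14 ± 0.238 and 7.29 ± 0.480 FPKM, followed by VPS13A at 6.76 ± 3.02 and 6.31 ± 1.64 FPKM, with overlapping ranges. In vector, UHRF1BP1, VPS13D, ATG2B, UHRF1BP1L and VPS13C followed between 3.79 and 2.94 FPKM, each overlapping its neighbour in the order. KIAA1109 (1.36 FPKM) and VPS13B (1.26 FPKM) were lowest in vector, and KIAA1109 lay below VPS13C without overlap. In sgVPS13C, VPS13D held rank 4 at 5.49 FPKM, VPS13B rank 8 at 1.99 FPKM, VPS13C rank 9 at 1.81 FPKM and KIAA1109 rank 10 at 1.55 FPKM. The last 3 overlapped in range, although VPS13B was above VPS13C in all 3 libraries. FPKM of a gene also depends on which of its transcripts the reads were assigned to.

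Of the 49 listed transcripts of the family, 26 passed the filter on low counts and 7 were at 0 in every library. No member transcript passed the test (0 of 26 by edgeR, with 4 at an unadjusted p under 0.05), against 2.25% of all 40948 tested transcripts. For VPS13C, NM_017684.5 took 87.3%, 90.8% and 92.9% of the gene's counts in vector and 93.0%, 97.0% and 92.8% in sgVPS13C. NM_018080.3, the transcript with its own last exon, took 12.2%, 9.23% and 6.66% in vector and 6.72%, 2.16% and 7.23% in sgVPS13C. Both shares overlapped between the groups. NM_018080.3 rested on 36.8 to 98.4 estimated counts in vector and 5.68 to 29.3 in sgVPS13C, and its log2 fold change of -1.35 had a 95% interval of -3.14 to 0.44 (edgeR adjusted p = 0.546). The log2 fold change of NM_017684.5 was -0.61 (edgeR adjusted p = 0.325).

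Among the other members, the main transcripts of VPS13B (NM_152564.4) and VPS13D (NM_018156.4) had log2 fold changes of 0.87 and 0.64, with edgeR adjusted p of 0.343 and 0.262. NM_015378.4, the lesser VPS13D transcript, took 9.59% to 17.1% of the gene in vector and 10.2% to 13.2% in sgVPS13C. For ATG2A, NM_001367971.1 took 66.9%, 73.8% and 63.4% in vector and 51.5%, 50.2% and 62.3% in sgVPS13C, without overlap, at a log2 fold change of -0.61 (edgeR adjusted p = 0.0994). NM_001367972.1 of ATG2A took 17.6% to 27.1% and 26.1% to 39.4%. Among 8 of the tested transcripts at least 1 library was listed at 0: NM_033305.3 of VPS13A, for example, had 559 estimated counts in vector 1 and 0 in sgVPS13C 2 and 3, and NM_014680.5 of KIAA0100 had 1805 in vector 1 and 0 in vector 2. ATG2B and UHRF1BP1 had 1 listed transcript each. Shares of the leading transcript ranged within the vector group alone from 0.0459% to 66.3% for KIAA1109 (XM_017008696.1), from 8.69% to 74.6% for UHRF1BP1L (XM_011538054.3) and from 16.3% to 77.8% for KIAA0100 (NM_001363826.1). The spread within a group was thus larger than any difference between the group means of these shares. Transcript usage was tested in 7 members with at least 2 tested transcripts and shifted in 0 of them (edgeR diffSpliceDGE, Simes adjusted p = 1 for each; 0 at an unadjusted p under 0.05), against 0.243% of 9062 genes.

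The genes around each member show whether it moved with its stretch of chromosome. Of the 40 nearest genes of at least 8 CPM, 20 on each side, those around VPS13C had a median of 0.14 on the log2 scale, and only 2 lay below VPS13C itself. The genes next to it were RORA, a nuclear receptor, and TLN2, a talin, which rose by 1.86 and 1.11 on the log2 scale (edgeR adjusted p = 1.69e-04 and 5.42e-04). VPS13B, VPS13D and UHRF1BP1L lay above 38, 36 and 37 of their 40 neighbours, whose medians were -0.01, 0.02 and -0.11. ATG2A lay below all 40 of its neighbours, of which 12 passed the test, all upward, with a median of 0.32. The other 5 members lay within the middle of their neighbourhoods, above 13 to 27 of 40.

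The genes whose log2 CPM followed VPS13C most closely over the 6 libraries, of 10236 genes with at least 10 CPM, were COL12A1 (Pearson r = 0.9990), MCM10 (0.9988), SPTBN1 (0.9980), ASAH2B (0.9977) and RFC3 (0.9967). COL12A1, a collagen, stood at 354.5, 218.4 and 253.2 CPM in vector and at 206.4, 136.3 and 177.7 CPM in sgVPS13C, which is the same pattern at a higher level. These correlations describe 6 libraries that share the length trend, and carry no p. RFC3, at an effective length of 2116 bases, is not among the longest genes. It stood at 103, 71.8 and 81.6 CPM in vector, the same order of libraries as VPS13C. What lies behind this shared order was not tested. Among the members, r with VPS13C ran from 0.75 (ATG2A) and 0.73 (UHRF1BP1) down to -0.28 (VPS13D) and -0.29 (VPS13B).

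Known partners of the family were followed in 3 lists, also chosen with earlier results of these data known. Of the 35 partner genes, LRRK2, a kinase of lysosomes mutated in Parkinson disease, had 3, 2 and 1 estimated counts in vector and 16, 10 and 23 in sgVPS13C. It passed the low-count filter only through sgVPS13C, so its test is left out of the counts. Of the other 34 genes, 12 passed the test, 4 rising and 8 falling, near the 35.1% of all tested genes. Of the 12 partners of VPS13 and BLTP proteins among them, 2 rose and 1 fell, with a median log2 fold change of 0.08. XK, the plasma membrane protein that binds VPS13A, rose from 18.5, 14.1 and 15.9 CPM to 29.4, 20.6 and 27.6 CPM, by 0.68 on the log2 scale (edgeR quasi-likelihood adjusted p = 0.0205). RAB6A, the Golgi GTPase that binds VPS13B, rose from 147.4, 128.1 and 132.4 CPM to 209.5, 168.8 and 207.2 CPM, by 0.52 (edgeR adjusted p = 0.0133). RAB7A, the late endosomal GTPase that recruits VPS13C, fell from 514.4, 514.7 and 548.5 CPM to 385.9, 368.0 and 382.6 CPM, by 0.47 on the log2 scale (edgeR adjusted p = 0.00740). VAPA and VAPB, the ER receptors that anchor VPS13 proteins, did not pass the test, with log2 fold changes of -0.03 and -0.25 (edgeR adjusted p = 0.815 and 0.102), but VAPB was called with the length trend removed (-0.32, edgeR adjusted p = 0.0253). RHOT1, the mitochondrial Miro GTPase that recruits VPS13D, had a log2 fold change of 0.52 (edgeR adjusted p = 0.0584), which was called with the length trend removed (edgeR adjusted p = 0.0233).

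Of the 11 partners of ATG2 proteins, 2 rose and 3 fell, with a median of 0.07, beside 35.1% of all tested genes called. With the length trend removed, 4 rose and 2 fell, beside 46.4% of all tested genes called. Neither count is read as a result about ATG2 partners. WDR45 (0.39, edgeR adjusted p = 0.00458) and GABARAP (0.56, edgeR adjusted p = 0.00856) were then called upward. WIPI1 and WIPI2 are phosphoinositide-binding proteins that place ATG2 at the autophagosome. WIPI1 rose from 49.2, 50.8 and 45.6 CPM to 77.9, 82.6 and 78.1 CPM, by 0.71 on the log2 scale (edgeR adjusted p = 0.00138), and WIPI2 fell by 0.38 (edgeR adjusted p = 0.0404). The WIPI2 call was lost with the length trend removed, at -0.41 (edgeR adjusted p = 0.0581). Of the ER scramblases that bind ATG2, VMP1 fell from 262.1, 264.8 and 260.6 CPM to 189.4, 179.9 and 212.0 CPM, by 0.44 (edgeR adjusted p = 0.0113), and TMEM41B rose by 0.29 (edgeR adjusted p = 0.0451). GABARAPL2, an ATG8 protein, fell by 0.50 on the log2 scale (edgeR adjusted p = 0.0267). The related GABARAP and GABARAPL1 did not pass the test, with log2 fold changes of 0.54 and 0.07 (edgeR adjusted p = 0.144 and 0.598).

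Of 11 further contact-site genes, 4 passed the test and each of these fell, with a list median of -0.18. That is 4 of 11 called, beside 35.1% of all tested genes and 17.4% called downward. With the length trend removed 5 fell and OSBP, an oxysterol-binding protein that exchanges lipids at ER contacts, was called upward (0.34, edgeR adjusted p = 0.0167). PDZD8, an ER protein that moves lipid at contacts with late endosomes, fell by 0.67 on the log2 scale (edgeR adjusted p = 0.0294). ESYT1, an extended synaptotagmin that ties the ER to the plasma membrane, fell from 159.3, 169.2 and 171.0 CPM to 117.3, 113.4 and 109.5 CPM, by 0.55 (edgeR adjusted p = 0.00262). VPS35 and VPS26A, subunits of the retromer that sorts cargo out of endosomes, fell by 0.70 and 0.49 (edgeR adjusted p = 0.00244 and 0.00457). VPS35 stood at 138.5, 118.5 and 128.5 CPM in vector and 84.7, 72.6 and 80.4 CPM in sgVPS13C. Neighbouring genes were compared for the members only. Whether VPS35, GABARAPL2 or any other partner gene moved with its stretch of chromosome was not tested. The calls of RAB7A, WIPI1, VMP1, ESYT1, VPS26A and VPS35 held without each library in turn. Those of XK, RAB6A, WIPI2 and GABARAPL2 were lost without vector 2, vector 3, sgVPS13C 1 or sgVPS13C 3, where edgeR adjusted p ran up to 0.0921, 0.0743, 0.134 and 0.0857. That of PDZD8 was lost without vector 3, sgVPS13C 2 or sgVPS13C 3 (up to 0.0880) and that of TMEM41B without any 1 library (up to 0.178). With the length trend removed, 9 of the 34 partner genes rose and 9 fell, against 46.4% of all tested genes called.

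**Figure D5:**
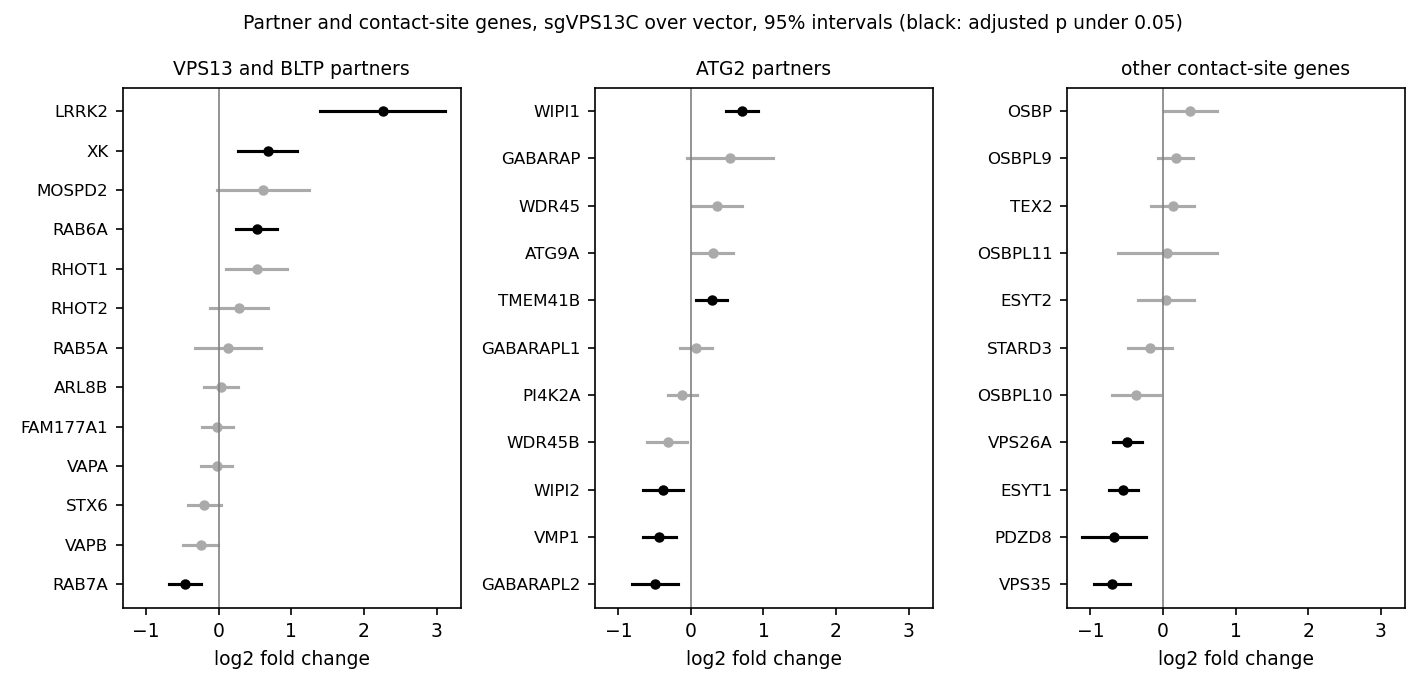
Log2 fold change of the 35 partner genes, sgVPS13C against vector, with 95% intervals, by list; black points passed the edgeR test at an adjusted p under 0.05, LRRK2 on counts under the minimum in every vector library. Called genes lie on both sides of 0 in the first 2 lists and below 0 in the list of further contact-site genes.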

How the data were processed

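Single-end 50-base reads were made on a DNBSEQ instrument, per the labels' protocols, on genome build hg38, per the submitters' processing notes. Any aligner, counter or strand setting is not given in the sources used here. In their tables, the authors deposited estimated (expected) counts, FPKM and TPM per gene and per transcript. Normalized columns (6 per table) and group means (8 per table) were not used.

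Estimated counts as deposited were rounded and tested with edgeR 4.0.16 (quasi-likelihood, robust, TMM, filterByExpr with a minimum count of 10, prior count 2) in R 4.3.3 over 13717 genes and 40948 transcripts, with Benjamini-Hochberg adjustment over all of them and a threshold of 0.05. diffSpliceDGE with the Simes method tested transcript usage. FPKM by the authors gave levels per length and shares of the family. TPM as deposited by the authors was used for 1 alternative. Effective lengths came from counts over FPKM, for 94.1% of tested genes. The length trend of each library was removed as a loess curve (span 0.4). Total counts of 14774065 to 15799149 per library set the precision of counting, which is lowest for the scarcest members; the scripts were tested on simulated data. Coordinates came from RefSeq GRCh38.p14 and GENCODE 29.

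The members and lists were chosen with earlier results of these data known. Named were all members, the tested VPS13C transcripts and leading transcripts of other members, called partner genes and the 5 genes most like VPS13C; genes beside VPS13C and partners not called were chosen after their values were seen. Alternatives were RLE factors, library size only, no low-count filter, DESeq2 1.42.0, limma 3.58.1 on log2(FPKM + 1), a replicate block, length removal with and without it, and leaving out each library. Figures used matplotlib 3.10.9.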

Additional observations from a re-analysis of the deposited data

How the results depend on the processing

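VPS13C kept its direction in all 14 alternatives and was called in 8 of them. Its log2 fold change and adjusted p were -0.68 and 0.0493 with RLE factors, -0.67 and 0.0474 without the low-count filter, -0.74 and 4.74e-04 with the length trend removed, -0.68 and 0.0144 by DESeq2, and -0.84 to -0.46 without 1 library. Replicate numbers were tried as a block. Same-numbered libraries correlated at 0.651, 0.681 and -0.215 in their deviations from the group mean, and sgVPS13C 3 fitted vector 1 best (0.394). Deviations from a group mean are tied to each other, so these values cannot settle whether the numbers pair the samples. The block is therefore given only as an alternative. With the replicate block VPS13C was at -0.67 (adjusted p = 4.84e-05), or -0.74 (3.03e-06) with the length trend also removed, 5 members were called in each of these fits, 23 and 25 partner genes, and 7939 and 8425 genes in all, against 4821. Members called numbered 3, but 1 with library size only, 0 by limma on log2(FPKM + 1) and 0 to 3 without 1 library, in which partner genes called, LRRK2 included, ran from 7 to 14, against 13. Genes called in all were 4611 with library size only and 4608 by limma, and ran from 3026 to 5043 without 1 library.

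Members near 0 changed sign. VPS13A went to -0.03 with library size only, -0.04 and -0.03 with the length trend removed without and with the replicate block, and -0.05 by limma. Without 1 library, VPS13A ran from -0.15 to 0.34, ATG2B from -0.05 to 0.36, UHRF1BP1 from -0.27 to 0.12 and KIAA0100 from -0.14 to 0.16. The VPS13C share of the family changed by -2.30 to -2.02 percentage points without 1 library. The cause of these changes was not tested. The range for KIAA1109 was 0.03 to 0.61 and for UHRF1BP1L 0.27 to 0.63. Counts of single transcripts were lower than those of their genes, which limits them further.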
